A study of Mus musculus with 17 samples.

Results

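The 9 myeloid lineage transcription factors described here are Spi1, Cebpa, Cebpb, Cebpd, Cebpe, Irf8, Irf4, Klf4 and Gfi1, taken by symbol from count tables that list 56305 genes. All 9 were found and all 9 passed the filter on low counts. The tables come from a study of CRISPR-Cas9 knockdown of Mt1, which encodes the zinc-binding protein metallothionein 1, in acute myeloid leukaemia (AML) of C57BL/6 mice. Bulk RNA from bone marrow was sequenced as 9 libraries labelled Mt1ko, of genotype Dnmt3aR878H/+;Npm1cA/+ with Mt1 knockdown, and 8 libraries labelled control, of genotype Dnmt3aR878H/+;Npm1cA/+ alone. Both groups thus carry the same point mutation of the DNA methyltransferase Dnmt3a and the same Npm1 allele, whose product is held in the cytoplasm, and no sample without them was analysed here. The labels name neither the guide RNA, nor the treatment of the control cells, the age of the mice or the share of leukaemic cells. The authors also added the libraries into 6 summed samples, which are Mt1ko 4-6, 10-12 and 16-18 and control 1-3, 7-9 and 14-15, named by their library numbers. Every library is labelled a technical replicate and nothing says that the 6 sums came from separate animals, so each p-value reflects only how these samples vary.

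Myeloid cells are built by a small set of DNA-binding proteins that act together and oppose one another. PU.1, the product of Spi1, and C/EBPα, the product of Cebpa, open the granulocyte and monocyte programme in progenitors; IRF8 and KLF4 then favour monocytes, while GFI1 and C/EBPε favour neutrophils and their granules. Primary granules, filled with proteases such as elastase and cathepsin G, are made at the promyelocyte stage, and secondary granules, with lactoferrin and cathelicidin, are made later. Blocks in this programme are a hallmark of myeloid leukaemia.

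Libraries held 27124722 to 38645072 counts and the sums 64247249 to 106407001. Mt1 itself, in CPM (read counts scaled to a common library total), was 41.8 to 87.2 in 8 Mt1ko libraries, against 348 to 471 in the 8 control libraries, but the library labelled Mt1ko 6 held 326 CPM, so that Mt1ko 4-6 contains a library that goes against its label. Libraries 10 to 12 stood apart in their RNA. The mitochondrial ribosomal RNA share was 21.9% to 30.2% in them and 4.58% to 11.2% in the other 14 libraries, and 11548 to 13174 genes were detected in them, against 14823 to 17739. Their summed CPM of the 12 mast cell and basophil markers was 2762 to 7000, against 38.9 to 662 in the other Mt1ko libraries and 7.19 to 2183 in control libraries, with Mcpt8 and Prss34 at 0 in Mt1ko 10-12 and Cpa3 at 1564 CPM. Of the other 14 libraries, 8 and 9, both of control 7-9, had the highest mitochondrial ribosomal RNA shares (8.77% and 11.2%). They also had the fewest genes detected (15404 and 14823). Of the marrow lineages, 11 of 16 monocyte genes averaged at least 10 CPM in each group, while 11 of 12 B and plasma cell markers and 9 of 10 T and NK cell markers averaged under 1 CPM in each group. In bulk RNA, fewer cells of a type and less RNA per cell cannot be told apart.

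The members differed widely in level. Per kilobase of merged exons, the scale on which genes can be compared, the median over 17 libraries was 155 CPM per kb for Cebpb. It was 47.8 CPM per kb for Spi1, 41.2 for Klf4 and 31.5 for Cebpa, 7.96 for Cebpd, 1.95 for Gfi1, 1.93 for Irf8, 0.71 for Irf4 and 0.025 for Cebpe. The order was the same in every library at 3 steps: Cebpb exceeded Spi1, Cebpa exceeded Cebpd and Cebpd exceeded Gfi1 in 17 of 17 libraries. Neighbours elsewhere did not separate, since Spi1 exceeded Klf4 in 11 of 17 libraries, Klf4 exceeded Cebpa in 14, Gfi1 exceeded Irf8 in 8, Irf8 exceeded Irf4 in 13 and Irf4 exceeded Cebpe in 10. Cebpb, Spi1, Klf4 and Cebpa led, and Cebpe was barely detected. Well-counted genes overlap Cebpb, Cebpd and Irf8, as given below, and may share reads with them, so the places of these members are less certain.

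Promoter windows of 6 of the 9 members were at hand, from 250 bases before to 50 after the RefSeq gene start on GRCm38.p6. Those of 3 members are shown, Cebpb because it had the highest level per kilobase, and Irf8 and Irf4 because they were the members with the sharpest drop in some samples. Each is written along the plus strand, which is the gene's own strand, and covers chr2:167688665-167688964 for Cebpb, chr8:120736108-120736407 for Irf8 and chr13:30748983-30749282 for Irf4.
Cebpb: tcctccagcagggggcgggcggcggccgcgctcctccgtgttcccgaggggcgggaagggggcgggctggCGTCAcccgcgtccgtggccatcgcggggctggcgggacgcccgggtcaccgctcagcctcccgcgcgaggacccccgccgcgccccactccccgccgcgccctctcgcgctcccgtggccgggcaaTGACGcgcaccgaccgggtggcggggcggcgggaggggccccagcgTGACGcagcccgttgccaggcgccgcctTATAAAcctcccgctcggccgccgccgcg
Irf8: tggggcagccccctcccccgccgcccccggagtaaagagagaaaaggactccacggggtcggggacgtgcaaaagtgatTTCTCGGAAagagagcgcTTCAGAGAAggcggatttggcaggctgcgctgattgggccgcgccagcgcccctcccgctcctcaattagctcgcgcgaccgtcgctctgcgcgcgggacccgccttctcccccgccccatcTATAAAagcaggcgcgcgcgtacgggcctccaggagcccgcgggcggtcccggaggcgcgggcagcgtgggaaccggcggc
Irf4: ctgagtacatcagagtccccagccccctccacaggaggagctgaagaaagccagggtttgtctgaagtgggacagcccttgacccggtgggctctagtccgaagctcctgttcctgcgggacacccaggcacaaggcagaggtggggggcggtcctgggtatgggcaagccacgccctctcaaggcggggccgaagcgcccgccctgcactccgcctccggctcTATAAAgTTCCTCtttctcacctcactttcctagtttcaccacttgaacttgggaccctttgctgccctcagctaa
Capitals mark the TATA box letters TATAAA in all of them, the cyclic AMP element core TGACG in Cebpb, the STAT motif TTCNNNGAA in Irf8 and the PU.1 core GAGGAA in Irf4, each searched on both strands, so that CGTCA and TTCCTC are matches on the minus strand. TATAAA began at position 22 in Cebpb, at -31 in Irf8 and at -26 in Irf4, counted from the RefSeq start as position 1 with no position 0. It also stood in the Cebpa window, at -30. Of 32851 promoters of the same length, 13.6% held TATAAA, 20.8% held TGACG, 8.30% held TTCNNNGAA and 28.3% held GAGGAA. Irf8 held 2 STAT motifs, Cebpb 3 cyclic AMP element cores, and Irf4 a single PU.1 core beside its TATA box. The GC box GGGCGG, the letters bound by KLF and Sp proteins, is left in lower case and was found 5 times in Cebpb, 4 in Klf4, 3 in Irf8 and 2 in Irf4, against 35.7% of promoters with any. The C/EBP letters TTNNGNAA, in 40.7% of promoters, were found in a Gfi1 window alone among the 8 windows. No matches of different motifs overlapped in any of them. A match is a run of letters, not a site shown to be bound.

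**Figure D1:**
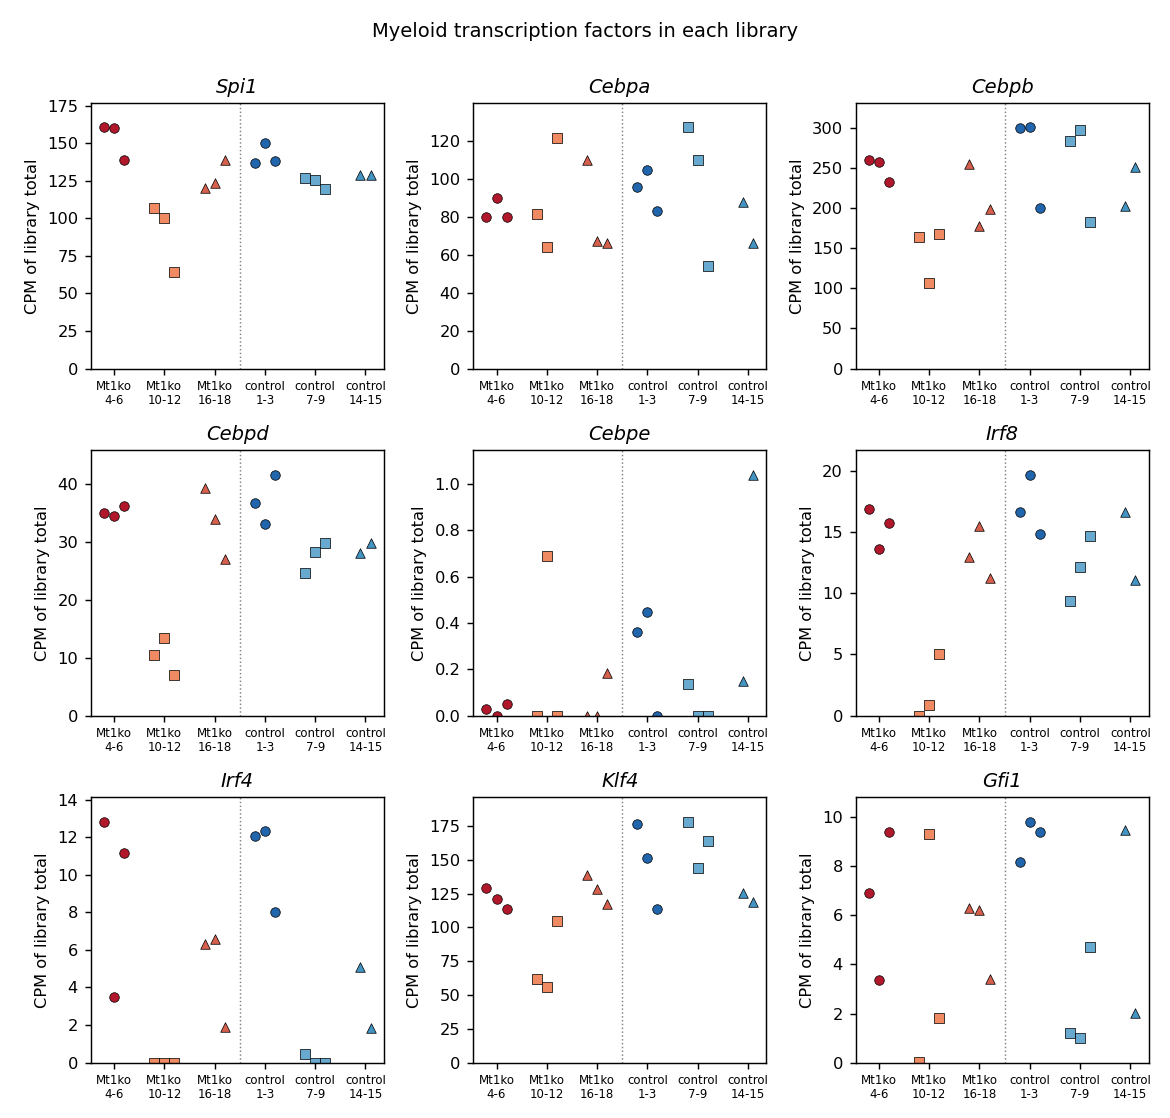
CPM of the library total (vertical axis, linear, from 0) for each of the 9 factors in the 17 libraries, placed by summed sample along the horizontal axis with Mt1ko left of the dotted line and control right of it; each point is 1 library. Spi1, Cebpa, Cebpb and Klf4 were present in every library, whereas Irf4 stood at 0 in all libraries of Mt1ko 10-12 and at 0 to 0.46 CPM in control 7-9.

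The comparison of Mt1ko with control asked whether these factors moved when Mt1 was knocked down. None of the 9 passed the test. The edgeR quasi-likelihood test on the 6 summed samples called 0 of 9 members and 0 of 16666 genes (0%), and 0 of 9 members had an unadjusted p under 0.05, against 171 of all genes (1.03%). It did not call Mt1 either, at a log2 fold change of -1.85 (edgeR quasi-likelihood unadjusted p = 0.00075). The lack of a call therefore does not by itself show that a gene was level. DESeq2 and limma-voom called 0 of the 9 as well; over all genes DESeq2 called 1, which was Mt1, and limma-voom 0. The 2 groups overlapped in every member, where they did not overlap in 7.1% of all genes (2.74% with Mt1ko higher and 4.36% with Mt1ko lower). Of the members, 7 had a fold change below 0 and 2 above, with a median log2 fold change of -0.17; of all genes 51.7% were below 0, with a median of -0.01. For 4 members, Spi1, Cebpa, Cebpb and Klf4, the 95% interval stayed less than 1 log2 unit from 0, so a difference of over 2-fold lay outside it. For Cebpd and Irf8 its upper bounds were 0.69 and 0.97, short of a 2-fold rise, while its lower bounds of -1.03 and -1.84 took in a 2-fold fall. For Cebpe, Irf4 and Gfi1 it took in a 2-fold difference in either direction.

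**Figure D2:**
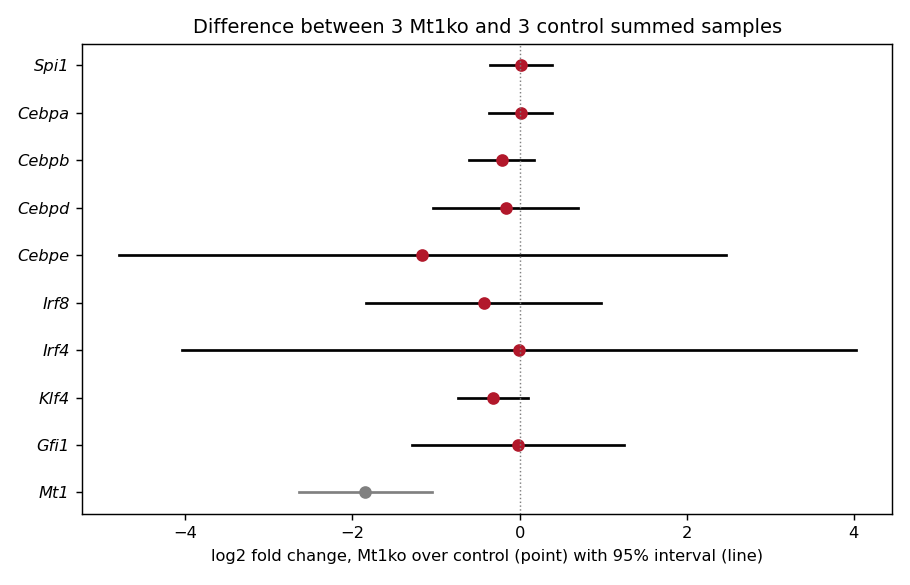
Log2 fold change of Mt1ko over control (horizontal axis) with its 95% interval for each factor and, in grey, for the targeted gene Mt1, from 3 Mt1ko and 3 control summed samples. All 9 intervals of the factors cross 0; the narrowest are those of Spi1, Cebpa, Cebpb and Klf4 and the widest those of Irf4 and Cebpe, while that of Mt1 runs -2.64 to -1.05.

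Spi1 and Cebpa, the factors at the root of the programme, had fold changes nearest to 0 among the well-expressed members. Spi1 (ENSMUSG00000002111; GRCm38 chromosome 2, 91082390 to 91115756, plus strand, 7 merged exons) encodes PU.1, an ETS-family protein that binds the promoters of many myeloid receptors. Its CPM, here and below scaled by TMM factors in the summed samples, was 152, 107 and 124 in Mt1ko 4-6, 10-12 and 16-18, against 138, 118 and 122.9 in control 1-3, 7-9 and 14-15. The highest and the lowest sample were both Mt1ko, and the groups overlapped. The means were 128 ± 22.9 CPM in Mt1ko and 126 ± 10.3 CPM in control (SD, n = 3 each), a log2 fold change of 0.02 (SE 0.16, 95% interval -0.35 to 0.38; edgeR quasi-likelihood adjusted p = 1.00). Over single libraries Spi1 was 64.4 to 160.5 CPM (median 123.5) in Mt1ko and 119.5 to 150.0 CPM (median 129) in control, and libraries 10, 11 and 12 lay below all others. It had the smallest spread of the 9, with a coefficient of variation of 17.9% over 17 libraries.

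Cebpa (ENSMUSG00000034957; chromosome 7, 35119293 to 35121928, plus strand, a single exon) encodes C/EBPα, without which granulocyte-monocyte progenitors do not form. It was at 83.2, 103.6 and 77.2 CPM in Mt1ko 4-6, 10-12 and 16-18, against 91.7, 95.8 and 74.2 CPM in control 1-3, 7-9 and 14-15. Mt1ko 10-12 and control 7-9 were the highest samples, unlike for any other member. Without TMM scaling, control 7-9 led with 100.8 CPM and Mt1ko 10-12 had 88.2 CPM. Mt1ko over control gave a log2 fold change of 0.01 (SE 0.16, 95% interval -0.37 to 0.39; edgeR quasi-likelihood adjusted p = 1.00). Libraries of these sums spread farther than the 6 samples did. They covered 53.9 to 127 CPM within control 7-9 and 64.3 to 122 CPM within Mt1ko 10-12. The antisense gene Gm45091, which overlaps Cebpa, held 21 counts in all, against 48308 for Cebpa.

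The other C/EBP factors, which act later or under stress, were lower or near level in Mt1ko without passing the test. Cebpb (ENSMUSG00000056501; chromosome 2, 167688915 to 167690418, plus strand, a single exon) encodes C/EBPβ, the factor of emergency granulopoiesis and of macrophage gene induction. Its CPM was 249.3, 170.2 and 202 in Mt1ko 4-6, 10-12 and 16-18, against 257, 248 and 215 in control 1-3, 7-9 and 14-15. Mt1ko 10-12 and 16-18 lay below every control sample, while Mt1ko 4-6 lay among them. The means were 207 ± 39.8 CPM in Mt1ko and 240.0 ± 22.1 CPM in control (SD, n = 3 each), a log2 fold change of -0.21 (SE 0.17, 95% interval -0.60 to 0.17; edgeR quasi-likelihood adjusted p = 1.00). Tmem189 overlaps the gene on the opposite strand and held 123004 counts against 124513 for Cebpb; the kit marks strand, but no label says how strand was counted, so the split between them is uncertain.

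Cebpd (ENSMUSG00000071637; chromosome 16, 15887286 to 15891031, plus strand, a single exon) encodes C/EBPδ, which is induced by cytokines. It was at 35.3, 12.3 and 32.2 CPM in Mt1ko 4-6, 10-12 and 16-18, against 36.1, 26.0 and 27.5 CPM in control 1-3, 7-9 and 14-15. A single sample, Mt1ko 10-12, lay far below the rest, and its 3 libraries held 10.5, 13.5 and 7.08 CPM, below every other library. The log2 fold change of -0.17 (SE 0.37; edgeR quasi-likelihood adjusted p = 1.00) was 0.18 without that sample. Spidr overlaps Cebpd on the opposite strand, with 18634 counts against 15869.

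Cebpe (ENSMUSG00000052435; chromosome 14, 54710360 to 54712174, minus strand) encodes C/EBPε, which drives secondary granule genes in maturing neutrophils. It was close to absent: 8 of 17 libraries held 0 counts and 16 of 17 were under 1 CPM, where 3 counts, the limit that a count of 0 allows, come to 0.078 to 0.11 CPM in a library. The sums held 3, 23 and 6 counts in Mt1ko 4-6, 10-12 and 16-18, against 25, 5 and 37 counts in control 1-3, 7-9 and 14-15. All 23 counts of Mt1ko 10-12 came from library 11, and 32 of the 37 of control 14-15 from library 15. At this depth the log2 fold change of -1.16 (SE 1.56; edgeR quasi-likelihood adjusted p = 1.00) says little, since its 95% interval ran from -4.79 to 2.47.

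Of the factors that favour monocytes, Klf4 had the smallest p of the 9 members. Klf4 (ENSMUSG00000003032; chromosome 4, 55527143 to 55532466, minus strand) encodes a zinc-finger protein needed for inflammatory monocytes. It was at 121, 86.3 and 124 CPM in Mt1ko 4-6, 10-12 and 16-18, against 141, 154 and 117 CPM in control 1-3, 7-9 and 14-15. Control 14-15 lay below 2 of the Mt1ko samples, so the groups overlapped. The means were 110.4 ± 21.0 CPM in Mt1ko and 137 ± 19.0 CPM in control (SD, n = 3 each), a log2 fold change of -0.32 (SE 0.18, 95% interval -0.74 to 0.10; unadjusted p = 0.12 and adjusted p = 1.00 by the edgeR quasi-likelihood test). The fold change was -0.16 without Mt1ko 10-12, whose libraries held 61.8, 55.9 and 104.8 CPM of their totals. In libraries the median was 117 CPM (55.9 to 139) in Mt1ko and 148 CPM (114 to 178) in control.

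Irf8 (ENSMUSG00000041515; chromosome 8, 120736358 to 120756694, plus strand, 11 merged exons) encodes the interferon regulatory factor that directs progenitors to monocytes and dendritic cells. It was at 15.4, 2.25 and 12.9 CPM in Mt1ko 4-6, 10-12 and 16-18, against 16.6, 11.2 and 13.3 CPM in control 1-3, 7-9 and 14-15. Mt1ko 10-12 stood alone at the low end, with 0, 0.87 and 5.01 CPM in libraries 10, 11 and 12, while the other 14 libraries held 9.32 to 19.7 CPM. On the log2 scale the difference of -0.43 (SE 0.61, 95% interval -1.84 to 0.97; edgeR quasi-likelihood adjusted p = 1.00) became 0.04 without Mt1ko 10-12. Gm20388 shares the strand and locus of Irf8 and held 4104 counts against 6717, so reads common to both could have been divided between them.

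Irf4 (ENSMUSG00000021356; chromosome 13, 30749226 to 30766976, plus strand) encodes a relative of IRF8 that pairs with PU.1 and acts in dendritic cells, macrophages and lymphocytes. It was at 9.16, 0 and 4.73 CPM in Mt1ko 4-6, 10-12 and 16-18, against 10.4, 0.16 and 3.37 CPM in control 1-3, 7-9 and 14-15. One sample of each group was at or near 0. Of single libraries, 3 of 9 Mt1ko libraries (10, 11 and 12) and 2 of 8 control libraries (8 and 9) held no count, and library 7 held 17 counts. The remaining libraries held between 1.86 and 12.8 CPM. Over the 3 libraries of Mt1ko 10-12, a count of 0 allows up to 0.032 CPM of their total. The group means were nearly level, 4.63 ± 4.58 CPM in Mt1ko and 4.66 ± 5.25 CPM in control (SD, n = 3 each), with a log2 fold change of -0.01 whose SE was 1.74 (edgeR quasi-likelihood adjusted p = 1.00). The 12 B and plasma cell markers summed to 0 to 11.4 CPM in Mt1ko libraries and 0.48 to 12.9 CPM in control libraries. Of these, Ms4a1 and Pax5 were at 0 in all. The 12 dendritic cell markers summed to 6.44 to 57.8 CPM in Mt1ko libraries and 8.07 to 34.4 CPM in control libraries. The part of such cells in the Irf4 values was not tested.

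Gfi1 (ENSMUSG00000029275; chromosome 5, 107716657 to 107726036, minus strand) encodes a repressor that holds down monocyte genes in neutrophil precursors. It was at 6.65, 4.60 and 5.11 CPM in Mt1ko 4-6, 10-12 and 16-18, against 8.92, 1.99 and 5.64 CPM in control 1-3, 7-9 and 14-15. The control samples held both the highest and the lowest value. The groups differed by a log2 fold change of -0.02 (SE 0.55, 95% interval -1.29 to 1.25; edgeR quasi-likelihood adjusted p = 1.00). Libraries of the same sum disagreed: libraries 10, 11 and 12 held 0.033, 9.30 and 1.84 CPM, and libraries 14 and 15 held 9.49 and 2.02 CPM.

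Across samples, the low values gathered in the same place. Mt1ko 10-12 was the lowest of the 6 samples for 6 of the 9 members (Spi1, Cebpb, Cebpd, Irf8, Irf4 and Klf4) and for 40.4% of all genes tested. Control 1-3 was the highest for 5 of the 9 (Cebpb, Cebpd, Irf8, Irf4 and Gfi1) and for 12% of all genes. Both member counts were the same in CPM of the total. The part that the RNA composition of libraries 10 to 12 has in these values was not tested.

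The libraries carried 3 second index sequences, which the labels give, and these divide the groups unevenly. Among libraries with the first, 3 Mt1ko and 5 control, the log2 ratio of mean CPM, Mt1ko over control with 1 CPM added, was 0.18 for Spi1, -0.32 for Cebpa, -0.14 for Cebpb, 0.10 for Cebpd, 0.08 for Irf8, 0.42 for Irf4, -0.33 for Klf4, 0.13 for Gfi1 and -0.21 for Cebpe. Among libraries with the second, 4 Mt1ko and 3 control, it was -0.36 for Spi1, 0.44 for Cebpa, -0.29 for Cebpb, -0.70 for Cebpd, -1.41 for Irf8, -0.36 for Irf4, -0.59 for Klf4, -0.25 for Gfi1 and -0.25 for Cebpe. Klf4 and Cebpb kept their direction in both, as did Cebpe at means under 1 CPM, and the other 6 factors did not. All of libraries 10 to 12 carried the second index. The third was carried by 2 Mt1ko libraries and no control library, so it gives no comparison.

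Of the granule genes, taken here as the output of the neutrophil branch, some were detected and others were at or near 0. For each list, a score was taken as the mean of log2(CPM + 1) over its genes. Among 6 primary granule genes, Ctsc, which encodes a protease that activates other granule proteases, and Prtn3, which encodes proteinase 3, were detected in every library. Elane, which encodes elastase, was at 0 in 1 of 17 libraries, and Ctsg, which encodes cathepsin G, in 3 of 17. Ctsg was at 0 CPM in Mt1ko 10-12 and 1.35 CPM in control 7-9. Mpo was under 6 CPM in every sample and was highest in control 7-9, at 5.84 CPM. Its highest single library, a control, held 21.7 CPM. Elane was at 66.4, 1.37 and 27.04 CPM in Mt1ko 4-6, 10-12 and 16-18, against 54.5, 6.71 and 80.02 CPM in control 1-3, 7-9 and 14-15. Of 10 secondary and tertiary granule genes, Hp, Mmp8, Cd177 and Lcn2 were detected, whereas Camp, which encodes cathelicidin, was listed at 0 in 17 of 17 libraries and Ltf, which encodes lactoferrin, in 16 of 17. Ngp was under 3 CPM and Mmp9 under 5 CPM in every sample. Mmp8, which encodes a neutrophil collagenase, was at 206, 171 and 207 CPM in Mt1ko 4-6, 10-12 and 16-18, against 164, 188 and 217 CPM in control 1-3, 7-9 and 14-15, and the groups overlapped. Where Cebpe was close to absent, genes of the late granule list thus ranged from 0 to over 100 CPM.

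Granule scores split the samples across the groups. The primary granule score was 4.16, 1.64 and 3.77 in Mt1ko 4-6, 10-12 and 16-18, against 4.25, 2.63 and 4.26 in control 1-3, 7-9 and 14-15. It differed by -0.52 log2 units between Mt1ko and control (3.19 ± 1.36 against 3.71 ± 0.94, SD, n = 3 each; exact two-sided permutation p = 0.5). The secondary and tertiary score was 3.14, 1.83 and 2.65 in those Mt1ko samples, against 2.63, 2.09 and 2.81 in those control samples, a difference of 0.03 (exact two-sided permutation p = 0.9). In both scores Mt1ko 10-12 and control 7-9 lay below the other 4 samples. The smallest p that 3 against 3 samples can give is 0.1.

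Monocyte output was high, and its 3 most abundant genes were lowest in the samples with the lowest granule scores. Vcan, F13a1 and Fn1, which are made in quantity by classical monocytes, and Csf1r, the receptor for the monocyte growth factor CSF1, led the 16 genes of the list. The 16 genes summed to 11933, 6976 and 13099 CPM in Mt1ko 4-6, 10-12 and 16-18, against 12113, 9320.02 and 13182 CPM in control 1-3, 7-9 and 14-15. F13a1 was at 2227, 1067 and 2374 CPM in those Mt1ko samples, against 2435, 1256 and 2334 CPM in those control samples. Csf1r, a textbook target of PU.1, was at 418, 245 and 419 CPM in Mt1ko 4-6, 10-12 and 16-18, against 377, 440.5 and 357 CPM in control 1-3, 7-9 and 14-15. The monocyte score was 6.29, 5.85 and 6.22 in Mt1ko 4-6, 10-12 and 16-18, against 6.16, 5.97 and 6.02 in control 1-3, 7-9 and 14-15. It differed by 0.07 log2 units between Mt1ko and control (6.12 ± 0.24 against 6.05 ± 0.10, SD, n = 3 each; exact two-sided permutation p = 0.7). The score gives each gene the same weight on the log2 scale, and not every gene followed the 3 most abundant. Cd14 was highest in Mt1ko 10-12 (261 CPM) and control 7-9 (293 CPM), against 150 to 236 CPM in the other 4 samples. Ctss was highest there too, at 353 and 362 CPM, against 298 to 340 CPM. Cx3cr1, a chemokine receptor of monocytes, was at 24.4 and 29.2 CPM there, against 2.46 to 7.28 CPM in the other 4. By contrast, Ly6c2, Ccr2, Ms4a6c, Fcgr1 and Ly86 were lowest in Mt1ko 10-12 and control 7-9.

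**Figure D3:**
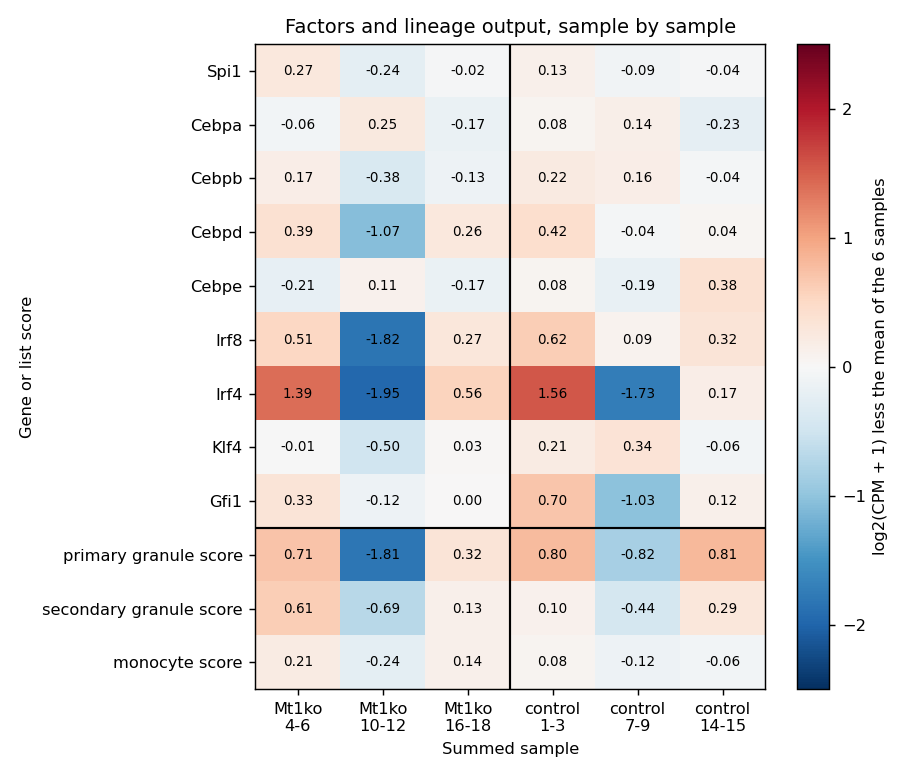
Level of each factor and score of each output list in the 6 summed samples, as log2(CPM + 1) less the mean of the 6 (red above, blue below), with Mt1ko left of the vertical line and control right of it. Irf4, Gfi1 and both granule scores are below 0 in Mt1ko 10-12 and control 7-9, and the rows of Spi1, Cebpa and the monocyte score stay within 0.27 of 0.

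Set against the granule scores sample by sample, Irf4 had the same split: its 2 lowest samples, Mt1ko 10-12 and control 7-9, were also the 2 lowest in the primary and the secondary granule score. Irf8 and Cebpd were lowest and second lowest in the same 2 samples, in that order, but control 7-9 was close to the next sample in both (11.2 CPM of Irf8 against 12.9 in Mt1ko 16-18, and 26.0 CPM of Cebpd against 27.5 in control 14-15). Gfi1 was lowest in control 7-9 and second lowest in Mt1ko 10-12, and Spi1 was lowest in Mt1ko 10-12 and second lowest in control 7-9. Cebpa ran the other way in TMM-scaled CPM, with its 2 highest samples where the granule scores were lowest. In CPM of the total, though, Mt1ko 10-12 (88.2) was below control 1-3 (94.5). Single libraries did not hold to this order. Library 9 of control 7-9 (53.9 CPM) and library 11 of Mt1ko 10-12 (64.3 CPM) had the lowest Cebpa of all 17 libraries. Klf4, Cebpb and Cebpe did not follow the split, Klf4 being lowest in Mt1ko 10-12 and highest in control 7-9. Cebpb was lowest in Mt1ko 10-12 (170.2 CPM). In control 7-9 it held 248 CPM, above Mt1ko 16-18 (202 CPM) and control 14-15 (215 CPM). Over all 16666 genes tested, Mt1ko 10-12 was the lowest sample for 40.4% and control 7-9 for 14.8%. The share of all genes with these as their 2 lowest samples was not counted. The split is therefore not shown to be particular to these factors. The part that the RNA composition of libraries 8 to 12 has in it was not tested. Because the samples fall into a set of 2 and a set of 4, in the granule scores and in the summed monocyte CPM, no correlation of a factor with a score is given.

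**Figure D4:**
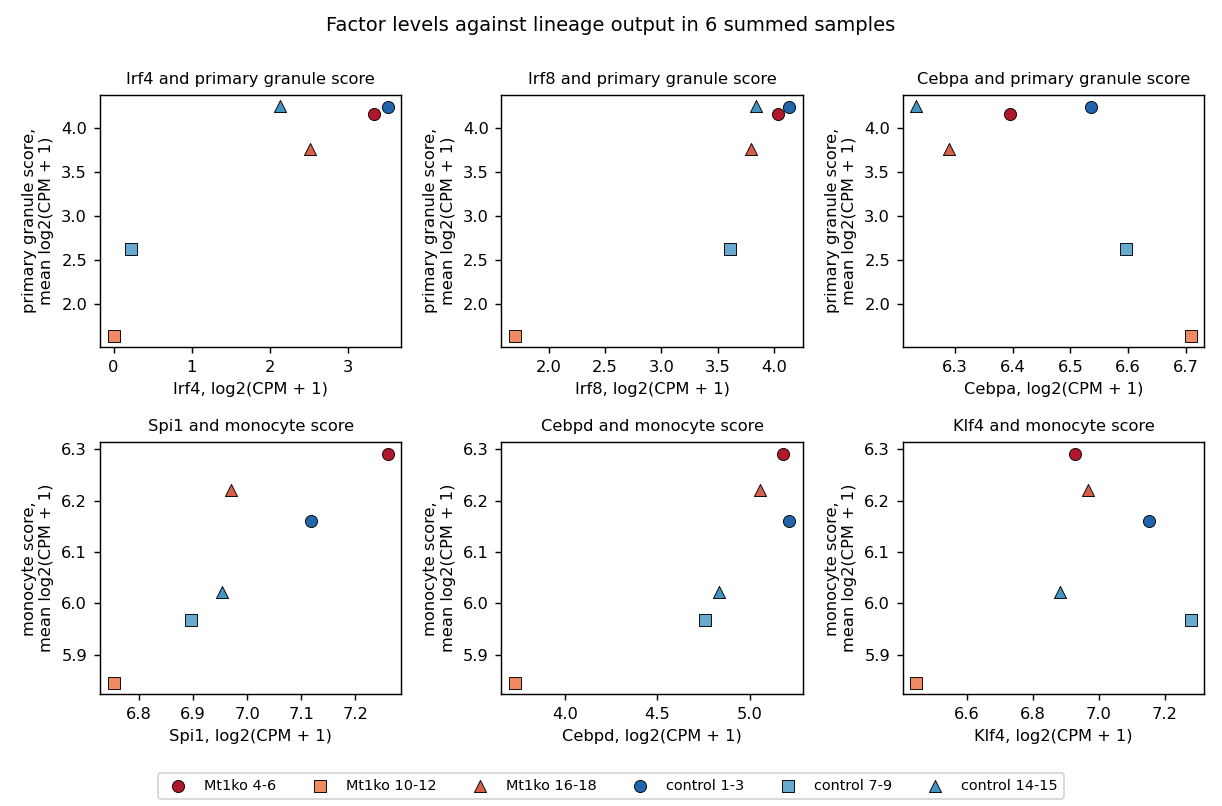
Each panel sets the log2(CPM + 1) of a factor (horizontal axis) against an output score, the mean log2(CPM + 1) of its genes (vertical axis), in the 6 summed samples, with Mt1ko in red shades and control in blue; axes do not start at 0. In the upper row the primary granule score is lowest in Mt1ko 10-12 (1.64) and control 7-9 (2.63), where Irf4 is lowest and TMM-scaled Cebpa highest (without TMM, control 1-3 exceeds Mt1ko 10-12 in Cebpa); in the lower row the monocyte score is plotted against Spi1, Cebpd and Klf4.

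The monocyte score also had its 2 lowest samples in Mt1ko 10-12 and control 7-9, but control 14-15 (6.02) was nearer to control 7-9 (5.97) than to control 1-3 (6.16). Its highest sample, Mt1ko 4-6, was also the highest in Spi1, at 152 CPM.

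Other genes of the programme were likewise not called. Of 44 other myeloid transcription factors and partners, 42 were tested and 0 called by the edgeR quasi-likelihood test, 0 of them with an unadjusted p under 0.05; 20 were higher and 22 lower, with a median log2 fold change of -0.03. The 4 most abundant were Zeb2, Jun, Bhlhe40 and Klf6. Zeb2, a repressor that monocytes need, was at 835, 795 and 841 CPM in Mt1ko 4-6, 10-12 and 16-18, against 848, 802 and 789.2 CPM in control 1-3, 7-9 and 14-15, and the groups overlapped. Jun, a subunit of AP-1 that binds PU.1 and C/EBP proteins, was at 476, 408 and 538 CPM in Mt1ko 4-6, 10-12 and 16-18, against 545, 481 and 461 CPM in control 1-3, 7-9 and 14-15.

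Of 29 receptors and effectors known as targets of the members, 24 were tested, 0 were called and 0 had an unadjusted p under 0.05 by the edgeR quasi-likelihood test; 15 were higher and 9 lower, with a median log2 fold change of 0.01. Lyz2, which encodes lysozyme and is a target of PU.1 and C/EBP proteins, was at 3111, 4589 and 2988 CPM in Mt1ko 4-6, 10-12 and 16-18, against 2238, 5644 and 2554 CPM in control 1-3, 7-9 and 14-15. It was thus highest in the samples with the lowest granule scores. Itgam, which encodes CD11b, and Itgb2, its partner chain, had log2 fold changes of 0.01 (SE 0.20) and 0.0032 (SE 0.18), and Csf2rb, the shared receptor chain for GM-CSF, of 0.48 (SE 0.28). In Csf2rb that came from Mt1ko 10-12 at 1376 CPM, against 680 and 699 CPM in the other Mt1ko samples.

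Markers of other cell types moved with some of these values. The summed CPM of 10 macrophage markers was 24.9 to 39.1 in libraries of Mt1ko 10-12 and 19.7 to 49.0 in those of control 7-9, the samples low in Irf4, against 256 to 288 in the other Mt1ko libraries and 89.1 to 372 in the other control libraries. That difference was in Mrc1, the mannose receptor, which was at 14.7 to 20.1 CPM in libraries of Mt1ko 10-12 and 4.46 to 20.2 CPM in those of control 7-9, against 70.9 to 351 CPM in the others. Siglec1, a lectin of tissue macrophages, was at 8.54 to 25.8 CPM in Mt1ko libraries and 12.97 to 30.8 CPM in control libraries. The other 8 of the 10 averaged under 1 CPM in each group, C1qa, C1qb and C1qc among them. The 10 neutrophil markers outside the granule lists summed to 47.5 to 88.4 CPM in libraries of Mt1ko 10-12 and 81.5 to 117 CPM in those of control 7-9, against 143 to 180.0 CPM in the other Mt1ko libraries and 162 to 189 CPM in the other control libraries. Of these, Retnlg was listed at 0 in every library and S100a9 in 14 of 17. The 10 stem and progenitor markers summed to 310.0 to 623 CPM in libraries of Mt1ko 10-12, against 163 to 213 CPM in the other Mt1ko libraries and 133 to 294 CPM in control libraries, with Kit, also a mast cell marker, at 297 CPM in Mt1ko 10-12. Their part in the levels of the 9 factors was not tested.

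The genes whose pattern was most like that of each factor were ranked by Pearson r of log2(CPM + 1) over the 17 libraries, and again over the 14 libraries without 10 to 12, among genes with a mean of at least 10 CPM. These are descriptions, since libraries of a sum share their source. For Spi1 the leading gene over 17 libraries was Parp3 (r 0.95) and over 14 libraries Slc15a3 (r 0.87). For Cebpa they were Ndufb10 (r 0.85) and Gys1 (r 0.90), and for Cebpb Noc2l (r 0.89) and R3hdm2 (r 0.82). For Cebpd they were Wdr26 (r 0.96) and Hnrnph2 (r 0.81), for Cebpe Trmt2a (r 0.75) and Mgst1 (r 0.83), and for Irf8 Srd5a3 (r 0.97) and Smap2 (r 0.88). For Klf4 they were Jade1 (r 0.94) and Pih1d1 (r 0.87), and for Gfi1 Tspyl2 (r 0.90) and Prrc1 (r 0.91). Irf4 had the same leading gene in both, Rps26 (r 0.97 and 0.96), a ribosomal protein gene with near-identical copies whose counts are therefore uncertain. Of the 3 leading genes of each factor, 1 was shared between both sets for Irf4 and 0 for the other 8, so for those 8 the leading genes changed entirely when libraries 10 to 12 were left out.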

How the data were processed

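Total RNA was isolated with a column kit and DNase and made into stranded libraries with a low-input SMARTer kit, per the labels' protocols. Trimmomatic 0.35, RSEM 1.3.3 and GRCm38 (mm10) are named in the submitters' processing notes; the aligner, each tool's role and the handling of strand were not given in the sources used here. Deposited by the authors were whole-number gene counts for 17 libraries and for 6 sums, each equal to its libraries in every gene. Library 13 was not analysed here. Of 56305 identifiers, 55227 matched GENCODE vM21, the source of coordinates; promoters came from RefSeq. The 9 members, the gene lists and the tests were chosen with earlier results of these data known.

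The 6 sums were compared in edgeR 4.0.16 under R 4.3.3 (filterByExpr, TMM, quasi-likelihood F test, group alone, Benjamini-Hochberg adjustment over 16666 genes, threshold 0.05). The TMM factor was 0.85 for Mt1ko 10-12 and 1.00 to 1.05 for the other sums. The procedure was tested on simulated data. Scores used a pseudocount of 1 CPM and exact permutation tests (scipy 1.17.1). Correlations of the factors with the scores had been planned and are not reported, since the samples fall into a set of 2 and a set of 4. Named beside the members were Mt1, up to 4 genes of each list with the highest control mean, and the genes most like each member. Other list genes named were chosen after their values were seen. They included Mpo, Camp, Ltf, further granule and monocyte genes, the zero-count markers and those of high-marker samples. Alternatives were RLE, upper quartile and library-total scaling, DESeq2 1.42.0, limma-voom 3.58.1, other filters, single libraries, no mitochondrially encoded genes, other forms of the scores, and leaving out library 6 or each sum. Intervals and limits cover counting error and the spread of these samples; PCR copies cannot be told from molecules.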

Additional observations from a re-analysis of the deposited data

Results flagged for a closer look

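Of 20 groups of library values examined, which were the 9 factors and Mt1 in each group, 3 held a library far from all others. For normally distributed values, chance gives about 1 in 20. Cebpe, at 0 in 8 of 17 libraries, is not so distributed, so that rate does not hold for it. In library 11 of Mt1ko, Cebpe reached 0.69 CPM, and no other Mt1ko library exceeded 0.19 CPM. Cebpe was 1.04 CPM in library 15, labelled control, where the next highest control library held 0.45 CPM. These rest on 23 and 32 counts. The Mt1 value of library 6, which carries the Mt1ko label, was 326 CPM, and all other Mt1ko libraries were at or below 87.2 CPM, while control libraries held 348 to 471 CPM.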

How the results depend on the processing

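No member was called under any of the alternatives run, and 18 of 141 member fold changes turned round, while the others kept their direction. The number of genes called over the whole table was 1, which was Mt1, with DESeq2, on the 17 libraries taken one by one, and once library 6 was removed from its sum, and 0 otherwise. Library-total scaling moved the median log2 fold change of all genes to -0.12. Spi1 and Cebpa, both close to 0, became -0.0078 and -0.0074 with upper quartile scaling and -0.089 and -0.12 with library totals, and Cebpa became -0.0048 and Gfi1 0.29 with limma-voom. Leaving out each summed sample in turn gave log2 fold changes of -0.13 to 0.13 for Spi1, -0.12 to 0.096 for Cebpa, -0.43 to 0.18 for Cebpd, -0.86 to 0.044 for Irf8, -0.98 to 1.40 for Irf4 and -0.41 to 0.52 for Gfi1. The highest of these came without Mt1ko 10-12 for Spi1, Cebpd and Irf8, and without control 1-3 for Irf4 and Gfi1. Score differences, Mt1ko minus control, ranged from -1.06 to 0.26 for primary granule genes, from -0.26 to 0.39 for secondary and tertiary ones and from -0.017 to 0.21 for monocyte genes in those runs. The secondary and monocyte differences were -0.016 and -0.032 with CPM of the total, and -0.083 and -0.15 with the log2 of the summed CPM. The cause of these reversals was not tested. No paired analysis was possible because the groups share no replicate numbers. Counts of 0, found in 8 libraries for Cebpe, 5 for Irf4 and 1 for Irf8, allow a level of up to 0.11 CPM in a library.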
